A study of Gossypium hirsutum with 24 samples.

Results

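The comparison described here is the change of the drought effect between 10 and 20 days post anthesis (dpa, counted in days from flower opening) in fibre-bearing ovules of upland cotton, *Gossypium hirsutum* cultivar Bikaneri Nerma. For each probe set, a group of probes for 1 transcript, the difference drought minus control at 10 dpa was taken from the difference drought minus control at 20 dpa. A positive change therefore means that the transcript stood higher in drought plants, relative to their controls, at 20 dpa than at 10 dpa. The comparison used 12 of the 24 arrays of the series and 23973 of its 24132 probe sets. Left out were the 159 control probe sets of the array.

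The groups, with 3 arrays each, were drought at 20 dpa, control at 20 dpa, drought at 10 dpa and control at 10 dpa. All plants were of the same cultivar and stood in neighbouring open-field plots, of which the drought plots were covered by a rain-out shelter when it rained. Drought was imposed by stopping irrigation at peak flowering, and bolls were taken once soil moisture had dropped to 19.5%, which was 50% of that in control plots, 18 to 19 days after the last irrigation. Moisture was then held near 20% by spraying while samples were taken. The labels call the 3 samples of a group biological replicates and do not say which plots they came from, so p-values measure the spread between these samples. At 10 and 20 dpa the RNA came from ovules with their fibres attached, and at 0 and 5 dpa from bolls, per the labels' protocols.

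A cotton fibre is a single cell of the ovule surface. It first elongates with a thin, extensible primary wall, a phase that uses expansins, xyloglucan-modifying enzymes, arabinogalactan proteins, very long chain lipids, ethylene and brassinosteroids. It then deposits an almost pure cellulose secondary wall, made by cellulose synthases from UDP-glucose that sucrose synthase supplies. The embryo within the same ovule grows and fills with storage protein and oil, and water deficit in plants acts through abscisic acid, NAC, MYB, AP2/ERF and WRKY factors, late embryogenesis abundant (LEA) proteins and antioxidant enzymes.

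The deposited values are log2 signals in which each probe set had been shifted so that the 6 arrays of a stage have a median of 0. A value of an array given below is therefore a log2 distance from that stage median. Levels of genes were lost in this step, so the labelled tissue could not be checked by the level of fibre markers, and nothing below compares levels between stages. In bulk RNA of whole ovules, fewer cells of a type and less RNA per cell cannot be told apart. Replicate arrays of the groups at 10 and 20 dpa differed from each other with an SD over probe sets of 0.16 to 0.29 in log2. A change had a standard error of 0.13 at the median. Drought replicate 2 at 10 dpa scattered most (SD 0.18), with control replicates 1 and 3 at 20 dpa next (0.15). Among the control probe sets, the drought minus control difference changed between 10 and 20 dpa by −0.14 for 42 poly-A spike probe sets, by −0.75 for 27 hybridisation probe sets and by 0.80 for 6 probe sets at the 5′ end of control transcripts minus 6 at the 3′ end, on the log2 scale. The part of these shifts in the results was not tested, and scaling each array on its hybridisation controls moves the median change of all probe sets by over 0.1, to 0.74 from −0.01 as deposited. Scaling on poly-A controls moves that median to 0.13.

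The differences between drought and control ovules at 20 dpa had other directions and sizes than those at 10 dpa. Sterol methyltransferases, an expansin, a cellulose synthase and fasciclin-like arabinogalactan proteins had a higher effect at 20 dpa than at 10 dpa, where they stood lower in drought. Several NAC and MYB factors, ACC oxidases of ethylene synthesis, the peroxidases pod7, pod10 and POX5, a lipoxygenase and LEA genes had a lower effect at 20 dpa than at 10 dpa, where they stood higher in drought. Across all 23973 probe sets the change was called for 14366 (59.9%, limma, adjusted p under 0.05), 7264 higher (30.3%) and 7102 lower (29.6%). A call with a change of at least 2-fold (log2 of 1) was made for 5842 probe sets (24.4%), of which 3146 were higher (13.1%) and 2696 lower (11.2%). The effect at 20 dpa was called for 14380 probe sets (60.0%), higher in drought for 6231 (26.0%) and lower for 8149 (34.0%). That at 10 dpa was called for 14445 (60.3%), higher for 6831 (28.5%) and lower for 7614 (31.8%). At 2-fold the effects were called for 2839 (11.8%) at 20 dpa and 4574 (19.1%) at 10 dpa. Scaling on hybridisation controls turned the split of called changes to 15880 higher and 2049 lower, and scaling on poly-A controls to 6834 higher and 4134 lower. The split of the effects at each stage also depended on the scale. With poly-A scaling 1293 effects were called higher and 20963 lower at 20 dpa, and 1454 higher and 20986 lower at 10 dpa. With hybridisation scaling 9813 were called higher and 1873 lower at 20 dpa, and 2993 higher and 12831 lower at 10 dpa.

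**Figure D1:**
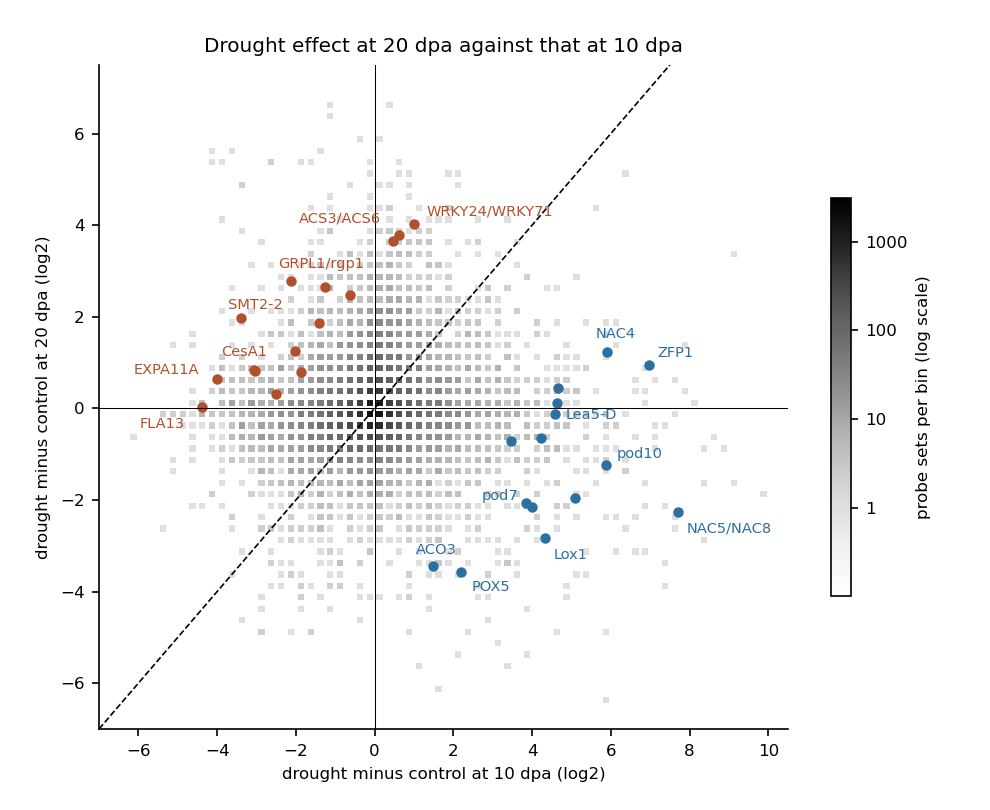
Each point or shaded area places probe sets by their drought minus control difference at 10 dpa (x axis, log2) and at 20 dpa (y axis, log2), with the 30 genes of largest change coloured by direction and some of them named. The dashed line marks equal effects. Of the 30 genes, chosen by size of change, 21 had effects of both stages called with opposite signs, against 17.7% of all probe sets. This choice itself favours opposite signs. The spread along x (SD 1.05) is wider than along y (SD 0.78).

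The signed effects of the 2 stages were close to uncorrelated. Over 23973 probe sets the effects correlated with a Pearson's r of 0.03 and a Spearman's rho of 0.12, as a description across probe sets that share arrays within a stage but none between stages. Effects had an SD over probe sets of 0.78 at 20 dpa and 1.05 at 10 dpa, and their difference had an SD of 1.29 with extremes of −12.24 and 9.74, all in log2. Opposite calls at both stages were made for 4250 probe sets (17.7% of all tested), of which 1801 (7.51%) were higher in drought at 20 dpa and lower at 10 dpa, and 2449 (10.2%) were lower at 20 dpa and higher at 10 dpa. At 2-fold at both stages there were 521 such probe sets, 208 in the first direction and 313 in the second. The count of opposite calls of any size came to 2070 with poly-A scaling, to 1533 with the 5′ minus 3′ difference of each array as a covariate and to 5118 with hybridisation scaling, where 4637 were of the first direction.

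Among the 3146 probe sets whose effect was at least 2-fold higher at 20 dpa, a call in opposite directions was the most frequent pattern, with 1302 (41.4%) higher in drought at 20 dpa and lower at 10 dpa. Another 588 (18.7%) were called higher at 20 dpa with no call at 10 dpa, 534 (17.0%) had no call at 20 dpa and were lower at 10 dpa, 494 (15.7%) were lower at both stages, less so at 20 dpa, and 228 (7.2%) were higher at both. Of the 2696 probe sets whose effect was at least 2-fold lower at 20 dpa, 1580 (58.6%) were called lower in drought at 20 dpa and higher at 10 dpa. A further 505 (18.7%) had no call at 20 dpa and were higher at 10 dpa, 353 (13.1%) were higher at both stages, 130 (4.8%) were lower at 20 dpa with no call at 10 dpa, and 128 (4.7%) were lower at both. The ranking of these patterns depends on the scale: with poly-A scaling the most frequent pattern of a higher effect was lower at both stages, 1894 against 895 in opposite directions, and with the 5′ minus 3′ covariate it was no call at 20 dpa and lower at 10 dpa, 1575 against 639. Of the lower effects, 1102 were in opposite directions with poly-A scaling, 465 with hybridisation scaling and 777 with the covariate, where 1463 were not called at 20 dpa and higher at 10 dpa.

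A gene name was available for 246 genes, each read by 1 probe set. The change was called for 195 of them (79.3%, against 59.9% of all probe sets), 100 higher and 95 lower, with a median log2 change of 0.05, against −0.01 over all probe sets. At 2-fold, 56 were higher and 49 lower. Counts of called members in the gene lists below are to be read beside this 79.3%. A list near that share gives no result about its family by its count alone. Opposite calls at the 2 stages were made for 67 named genes, 37 higher in drought at 20 dpa and lower at 10 dpa, and 30 the other way. Among the 30 genes of largest change, taken 15 in each direction, 21 had opposite calls, against 17.7% of all probe sets. All 30 had a limma adjusted p of at most 1.94e-09. They were taken from called genes by the size of the change, so calls with small p-values follow from this choice. Ranking by a difference of effects also favours opposite calls. Each was called in the same direction under every alternative setting in which it was measured, but these settings reuse the same arrays. Of the 30, 16 were read by probe sets whose suffix marks possible binding to related transcripts.

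**Figure D2:**
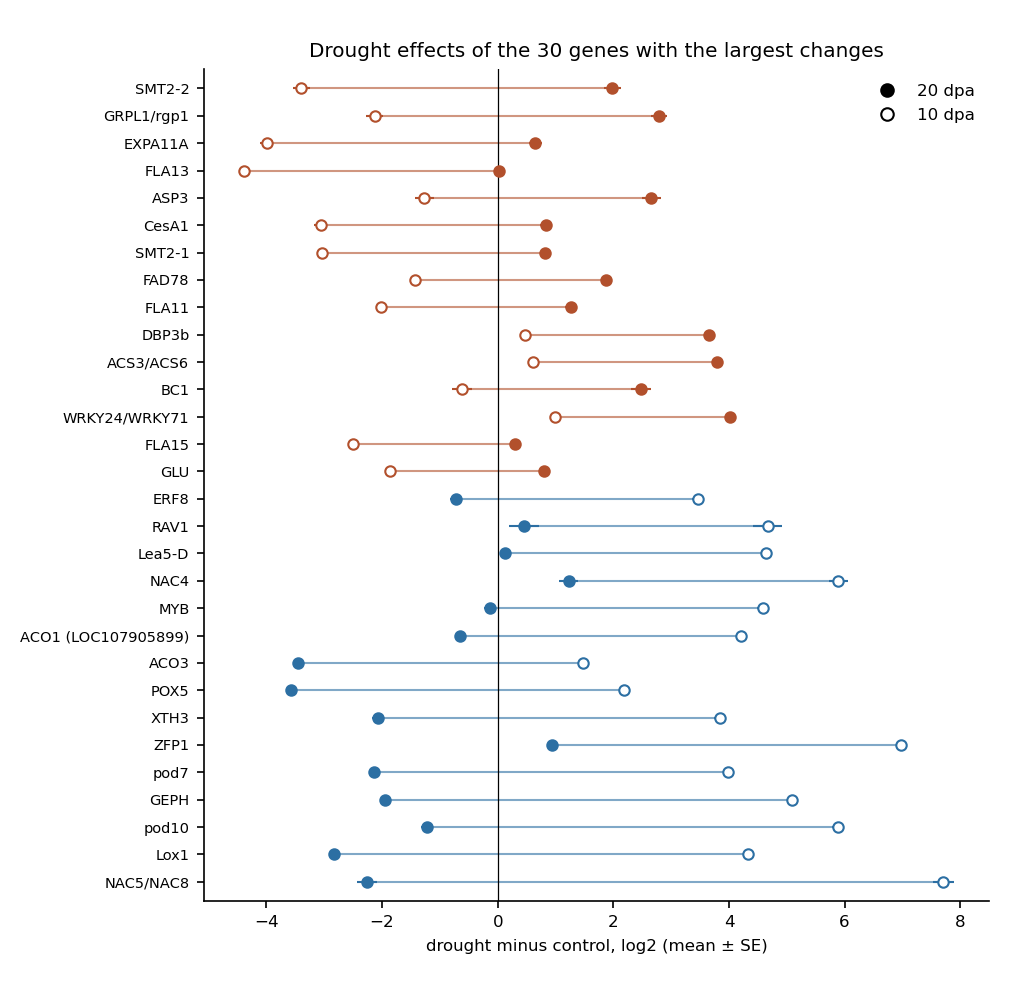
For each of the 30 genes with the largest changes, drought minus control (log2, mean ± SE, from 3 arrays per group) is drawn at 20 dpa (filled circle) and at 10 dpa (open circle), joined by a line. The 15 genes with a higher effect at 20 dpa have their open circles below the filled ones, and the 15 with a lower effect have them above, up to 7.71 for NAC5/NAC8.

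Sterol synthesis held the gene with the largest positive change of the 30. Sterol C-24 methyltransferases add the side-chain carbon that separates plant sterols from one another, and their products go into membranes and into brassinosteroids. SMT2-2 (LOC107905551, chromosome D05) read 0.92, 0.98 and 0.78 in drought arrays at 20 dpa, against −0.78, −1.09 and −1.38 in control arrays of that stage. At 10 dpa it read −1.91, −1.43 and −2.15 in drought arrays, against 1.50, 1.77 and 1.43 in control arrays. Drought lay above control in every array at 20 dpa and below it in every array at 10 dpa. The effects were 1.98 at 20 dpa and −3.40 at 10 dpa, a change of 5.38 ± 0.21 (SE, log2) or 41.6-fold, with a limma adjusted p of 3.26e-15. Its partner SMT2-1 (LOC107959396, chromosome A05), the same kind of enzyme, had effects of 0.81 at 20 dpa and −3.04 at 10 dpa, a change of 3.86 ± 0.06 (SE, log2), though with poly-A scaling its effect at 20 dpa was −0.11. SMT1 (LOC107950679), which acts at the first methylation step, changed by 1.16. Of 4 genes for sterol and brassinosteroid synthesis 3 were higher and 1 lower, with a median change of 2.51. The lower one was DET2, the steroid 5α-reductase of brassinosteroid synthesis, at −0.24, which turned to 0.51 with hybridisation scaling and to 0.05 with the 5′ minus 3′ covariate. Its call was lost in 8 of the 12 fits that left out 1 array (limma adjusted p 0.0529 to 0.125), with the 12 arrays alone and with poly-A or array-median scaling.

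Of the 4 expansins 3 had a higher effect at 20 dpa. EXPA11A (LOC107885990, chromosome A03), an expansin that loosens the bonds between wall polymers, read 0.16, 0.22 and 0.18 in drought arrays at 20 dpa, against −0.16, −0.36 and −0.86 in control arrays. At 10 dpa the drought arrays read −2.09, −1.89 and −2.11, against 2.08, 1.89 and 1.93 in control arrays. Drought was the higher group at 20 dpa, by 0.65, and the lower one at 10 dpa, by a difference of −4.00, for a change of 4.64 ± 0.16 (SE, log2), limma adjusted p 8.05e-16. The sign at 20 dpa was not kept under every setting: it was −0.28 with poly-A scaling and −0.04 with the 5′ minus 3′ covariate. The higher ones were EXPA4 by 2.22 and EXPA3D by 1.56 besides EXPA11A. EXP1 was lower, at −1.36, and the median was 1.89. EXPA3D has another probe set that changed by −3.03, so its direction depends on the probe set read.

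CesA1 (LOC107909647, chromosome D10) encodes a catalytic subunit of cellulose synthase known from cotton secondary walls. It read 0.37, 0.42 and 0.41 in drought arrays at 20 dpa, against −0.43, −0.37 and −0.50 in control arrays. The values at 10 dpa were −1.28, −1.89 and −1.85 in drought arrays, against 1.52, 1.38 and 1.28 in control arrays. Neither stage had overlap between drought and control, and the order turned round between them. The change was 3.90 ± 0.15 (SE, log2), limma adjusted p 3.93e-15, from effects of 0.83 at 20 dpa and −3.06 at 10 dpa. The probe set is of antisense design, and the other probe set of the gene changed by 2.25. With poly-A scaling the effect at 20 dpa was −0.09, so there the order did not turn.

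GRPL1/rgp1 (LOC107953490, chromosome D07), also named as a reversibly glycosylated polypeptide, a class of proteins that handle nucleotide sugars for wall polysaccharides, was apart from control at both stages. It read 1.36, 1.38 and 1.14 in drought arrays at 20 dpa, against −1.14, −1.44 and −1.90 in control arrays. In the younger ovules of 10 dpa it read −1.36, −0.84 and −1.41 in drought arrays, against 0.94, 0.99 and 0.84 in control arrays. The change was 4.92 ± 0.20 (SE, log2), and its 4 probe sets spanned 0.59 to 4.92, all upward. Of the 5 genes for cellulose and wall polymer synthesis, 4 were higher, with a median of 1.13. UGD2, a UDP-glucose dehydrogenase that opens the route to pectin and hemicellulose sugars, changed by 1.13, and CslD1, a cellulose synthase-like gene, by 0.50. CTL1, a chitinase-like gene tied to cellulose deposition, was lower as deposited, at −0.96, and with hybridisation scaling no gene of the list was called lower.

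**Figure D3:**
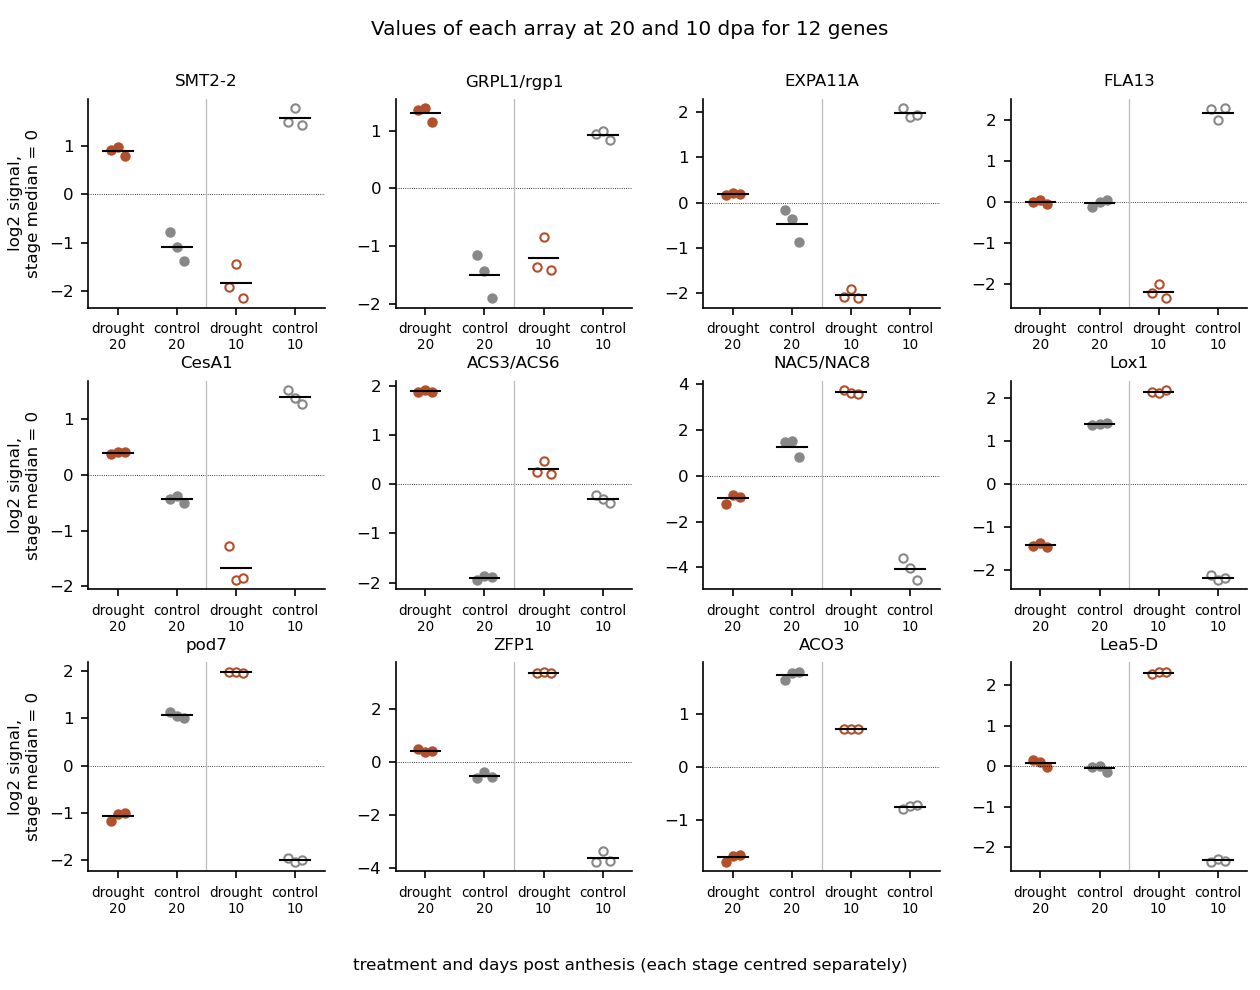
Each panel shows 1 gene, with the log2 signal of every array (points) and the group mean (bar) for drought and control at 20 dpa (filled) and at 10 dpa (open), the median of each stage set to 0. In SMT2-2, GRPL1/rgp1, EXPA11A and CesA1 drought lies above control at 20 dpa (not with poly-A scaling for EXPA11A and CesA1) and below it at 10 dpa, and in NAC5/NAC8, Lox1, pod7 and ACO3 it lies below control at 20 dpa and above it at 10 dpa.

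Fasciclin-like arabinogalactan proteins (FLA) are glycoproteins of the plasma membrane and wall that are abundant in growing fibres. FLA13 (LOC107911922, chromosome D11) read −0.01, 0.05 and −0.05 in drought arrays at 20 dpa, against −0.12, 0.01 and 0.05 in control arrays. At 10 dpa the values were −2.23, −2.0 and −2.35 in drought arrays, against 2.28, 2.00 and 2.29 in control arrays. The groups overlapped at 20 dpa, where the effect of 0.02 was not called (with poly-A scaling it was −0.90 and called), and were far apart at 10 dpa, where it was −4.38. The change was 4.40 ± 0.11 (SE, log2) with a limma adjusted p of 4.49e-18. FLA11 (LOC107922285) read 0.43, 0.62 and 0.53 in drought arrays at 20 dpa, against −0.43, −0.79 and −0.97 in control arrays. In the 10 dpa ovules it read −1.03, −0.95 and −1.02 in drought arrays, against 1.00, 1.11 and 0.95 in control arrays. It had opposite effects of 1.26 at 20 dpa and −2.02 at 10 dpa and a change of 3.28 ± 0.13 (SE, log2). FLA15 changed by 2.82, FLA12 by 2.29 and FLA14 by 1.08. Among 12 arabinogalactan genes, of which FLA19 has called probe sets in both directions (−0.65 and 0.57), 9 were higher and 1 lower, with a median of 0.73. The lower one, FLA4, changed by −0.31, turning to 0.44 with hybridisation scaling, where 11 of the 12 were higher and none lower. FLA15 had an effect of 0.31 at 20 dpa, against −2.51 at 10 dpa, and with poly-A scaling its effect at 20 dpa was −0.62.

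Tubulin, kinesin and actin genes had small median changes, and the sucrose synthases split. Of all named genes 79.3% were called in either direction, a larger share than in the tubulin and kinesin list or the actin list. Of 9 tubulin and kinesin genes 6 were higher and none lower (median 0.49), and of 5 actin genes 2 were higher and none lower (median 0.17). The largest was BTub1 (LOC107962977), a β-tubulin of the microtubules that orient cellulose, which stayed lower in drought at both stages, with effects of −1.22 at 20 dpa and −3.52 at 10 dpa on the log2 scale. The lowest of the tubulin and kinesin list was the kinesin KCH1 at −0.31, not called. Actins ranged between 0.10 for ACT10, not called, and 0.69 for ACT7. BTub3 changed by 1.62 and TubA2 by 0.89. Of the 3 sucrose synthases, which supply UDP-glucose for cellulose, Sus1 was higher by 1.34 and SusA1 by 1.78, and susC was lower, at −2.52. The value of SusA1 rests on uneven replicates: in drought arrays at 10 dpa it read 0.18, 2.48 and 0.45, so replicate 2 stood far from the others, and with the 5′ minus 3′ covariate the change was −0.79 (limma adjusted p 0.240), which also turned the median of the 3 genes to −0.79, against 1.34 as deposited.

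Xyloglucan genes split. Among the 3 xyloglucan endotransglucosylase/hydrolase genes, whose enzymes cut and rejoin xyloglucan, XTH1 was higher by 1.85 and XTH by 1.11, and XTH3 (LOC107913353) fell to −2.07 in the effect at 20 dpa, against 3.84 at 10 dpa. XTH3 read −0.91, −1.17 and −0.94 in drought arrays at 20 dpa, against 0.91, 1.23 and 1.07 in control arrays. It read 2.11, 1.89 and 1.74 in drought arrays at 10 dpa, against −2.11, −1.92 and −1.74 in control arrays. The change of XTH3 was −5.91 ± 0.14 (SE, log2), without overlap between drought and control at either stage.

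NAC factors, many of which act in stress responses or wall formation, included the gene with the largest fall. NAC5/NAC8 (LOC107892421, chromosome A11), a NAC factor, read −1.21, −0.82 and −0.92 in drought arrays at 20 dpa, against 1.50, 1.52 and 0.82 in control arrays. At 10 dpa it read 3.74, 3.63 and 3.59 in drought arrays, against −3.59, −4.02 and −4.55 in control arrays. Drought arrays were the lower ones at 20 dpa and the higher ones at 10 dpa, without overlap. The effects were −2.26 at 20 dpa and 7.71 at 10 dpa, a change of −9.97 ± 0.25 (SE, log2) or 1002-fold, limma adjusted p 3.43e-18. NAC4 (LOC107916546) read 0.77, 0.49 and 0.61 in drought arrays at 20 dpa, against −0.50, −0.49 and −0.81 in control arrays, and 2.66, 3.43 and 2.80 in drought arrays at 10 dpa, against −3.34, −2.66 and −2.78 in control arrays. It stayed higher in drought at both stages, by 1.23 at 20 dpa (0.30 with poly-A scaling, not called) and 5.89 at 10 dpa. NAC7 changed by −4.01 and NAC2 by −2.60. The exception was nst3/NACL2, named after the Arabidopsis factor that switches on secondary wall synthesis, which changed by 1.04 ± 0.19 (SE, log2) from effects of 1.11 at 20 dpa and 0.07 at 10 dpa. That call was lost with the 5′ minus 3′ covariate, at 0.21. Of 7 NAC genes 4 were lower and 1 higher, with a median of −2.60, and with hybridisation scaling 4 were lower and 3 higher.

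Of 8 MYB genes 7 were lower and 1 higher, with a median of −2.02. Among the lower ones GHMYB38 depends on the probe set read, with called probe sets at −0.97 and 0.73. The gene listed as MYB (LOC107909337) had an effect of −0.13 at 20 dpa, not called, and of 4.58 at 10 dpa. MYB5 changed by −3.78, GHMYB36 by −2.81 and GHMYB10 by −2.05. The one that was higher, myb109, a MYB factor described from cotton fibres, changed by 0.42, a call lost with the 5′ minus 3′ covariate, at 0.20 (limma adjusted p 0.514). ZFP1 (LOC107933034, chromosome D01), a zinc finger protein, read 0.49, 0.37 and 0.42 in drought arrays at 20 dpa, against −0.62, −0.37 and −0.55 in control arrays. The values at 10 dpa were 3.35, 3.38 and 3.35 in drought arrays, against −3.75, −3.35 and −3.71 in control arrays. Drought was above control at both stages, by 0.94 at 20 dpa (0.02 with poly-A scaling, not called) and by 6.97 at 10 dpa, and the change was −6.02 ± 0.12 (SE, log2), limma adjusted p 8.13e-20. All 3 zinc finger and Di19 genes were lower with a median of −0.63, while with hybridisation scaling 1 was lower and the median was 0.12, with Di19-2 at 0.33.

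LEA proteins protect cells that lose water and accumulate in drying seeds. Lea5-D (LOC107916177, chromosome D10) read 0.16, 0.10 and −0.02 in drought arrays at 20 dpa, against −0.01, 0.01 and −0.13 in control arrays. In the younger ovules of 10 dpa it read 2.29, 2.33 and 2.33 in drought arrays, against −2.36, −2.29 and −2.34 in control arrays. The effect at 20 dpa, 0.13, was not called (with poly-A scaling it was −0.80 and called) and that at 10 dpa was 4.64, a change of −4.52 ± 0.08 (SE, log2), limma adjusted p 8.72e-21. Lea14-A, the other LEA gene measured, changed by −2.12. RAV1 (LOC107946446), an AP2/B3 factor, changed by −4.21 ± 0.36 (SE, log2) with the largest standard error of the 30 genes, from 1.95, 3.67 and 2.32 in drought arrays at 10 dpa.

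Genes of ethylene synthesis changed in both directions. ACC synthase makes the precursor ACC, and ACC oxidase turns it into ethylene, a hormone that promotes fibre elongation in cotton ovule culture. ACS3/ACS6 (LOC107947061, chromosome D12), an ACC synthase, read 1.88, 1.91 and 1.87 in drought arrays at 20 dpa, against −1.95, −1.87 and −1.88 in control arrays. At 10 dpa the values were 0.25, 0.46 and 0.21 in drought arrays, against −0.21, −0.30 and −0.38 in control arrays. Drought lay above control at both stages as deposited, by 3.79 at 20 dpa and 0.61 at 10 dpa (−0.46 with poly-A scaling), and the change was 3.18 ± 0.09 (SE, log2), limma adjusted p 8.95e-18. A second ACC synthase, ACS, was lower, at −2.21.

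All 3 ACC oxidases were lower. ACO3 (LOC107915412, chromosome D08) read −1.79, −1.67 and −1.65 in drought arrays at 20 dpa, against 1.65, 1.78 and 1.80 in control arrays. At 10 dpa it read 0.73, 0.72 and 0.73 in drought arrays, against −0.80, −0.73 and −0.72 in control arrays. Drought was the lower group at 20 dpa and the higher at 10 dpa, and the change was −4.92 ± 0.07 (SE, log2), limma adjusted p 6.4e-22. The ACO1 gene LOC107905899 changed by −4.87 ± 0.09 (SE, log2), from −0.65 at 20 dpa and 4.21 at 10 dpa, and the ACO1 gene LOC107954048 by −1.41. Of the 5 ethylene synthesis genes 1 was higher and 4 were lower, with a median of −2.21, and these counts were the same under each setting tried for this list.

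AP2/ERF factors include those that respond to ethylene and those that respond to water deficit. Of 9 such genes 5 were lower and 3 higher, with a median of −0.41 that turned to 0.34 with hybridisation scaling. ERF8 (LOC107922990) changed by −4.19 ± 0.15 (SE, log2), from −0.72 at 20 dpa and 3.47 at 10 dpa. ERF7 changed by −3.98 and CBF17 by −3.58. DBP3b (LOC107890730), named as a DNA-binding protein, was higher instead, with 1.78, 1.72 and 1.83 in drought arrays at 20 dpa, against −2.02, −1.87 and −1.72 in control arrays. At 10 dpa its drought arrays read 0.21, 0.13 and 0.52, against −0.21, −0.19 and −0.13 in control arrays. It stood above control at both stages as deposited, by 3.65 at 20 dpa and 0.47 at 10 dpa (−0.60 with poly-A scaling). ERF9 changed by 1.44.

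The 2 WRKY factors, members of a plant family of stress regulators, changed in opposite directions. WRKY24/WRKY71 (LOC107906829, chromosome D05) read 1.94, 1.94 and 2.06 in drought arrays at 20 dpa, against −2.25, −1.94 and −1.94 in control arrays. The values at 10 dpa were 0.45, 0.39 and 0.40 in drought arrays, against −0.39, −0.65 and −0.70 in control arrays. It was above control at both stages as deposited, by 4.02 at 20 dpa and 0.99 at 10 dpa (−0.07 with poly-A scaling), for a change of 3.03 ± 0.12 (SE, log2), limma adjusted p 3.19e-15. WRKY15 (LOC107931629) had effects of −1.22 at 20 dpa and 2.76 at 10 dpa, a change of −3.98.

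A lipoxygenase and 3 peroxidases were among the 15 genes with the largest falls. Lox1 (LOC107919998, chromosome D13), a lipoxygenase that adds oxygen to polyunsaturated fatty acids, read −1.43, −1.38 and −1.47 in drought arrays at 20 dpa, against 1.38, 1.39 and 1.43 in control arrays. In the younger ovules of 10 dpa it read 2.14, 2.12 and 2.19 in drought arrays, against −2.12, −2.23 and −2.20 in control arrays. The replicates were close together, the order of the groups was opposite at the 2 stages, and the change was −7.16 ± 0.07 (SE, log2) or 143-fold, limma adjusted p 1.79e-24. The other 2 genes of its list, ACX and MFP, enzymes of fatty acid β-oxidation, were higher by 1.97 and 2.46.

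Among peroxidases, pod7 (LOC107936187, chromosome D04) read −1.18, −1.02 and −1.02 in drought arrays at 20 dpa, against 1.14, 1.05 and 1.02 in control arrays. At 10 dpa the values were 1.98, 1.99 and 1.97 in drought arrays, against −1.97, −2.05 and −2.01 in control arrays. Again drought was the lower group at 20 dpa and the higher at 10 dpa, without overlap, for a change of −6.14 ± 0.12 (SE, log2), limma adjusted p 4.56e-20. The antisense-design probe set of pod10 (LOC107914313) changed by −7.11 ± 0.15 (SE, log2), from −1.23 at 20 dpa and 5.88 at 10 dpa. POX5 (LOC107914564) changed by −5.77, with effects of −3.58 at 20 dpa and 2.19 at 10 dpa, and its second probe set by −2.16. The list had 11 genes, of which 6 were lower and 2 higher with a median of −0.64, and with hybridisation scaling 4 were lower and 5 higher with a median of 0.11. The highest of the 11 was POX9 at 0.89.

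Other antioxidant genes were split, 5 lower and 4 higher of 10 with a median of −0.14, against 0.61 with hybridisation scaling. CAT2, a catalase, changed by −2.20, AOX1, the alternative oxidase of mitochondria, by −1.49, and sAPX, a chloroplast ascorbate peroxidase, by 1.07. Of 5 MAP kinase genes, which relay stress signals, all 5 were lower with a median of −0.63, while with hybridisation scaling 2 were lower and the median was 0.12. The MPK3 call rests on the probe set read: its 6 probe sets changed by −2.07 to 1.80, 3 in each direction, and their mean was −0.16 (limma adjusted p 0.116). MAPKKK changed by −1.76.

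**Figure D4:**
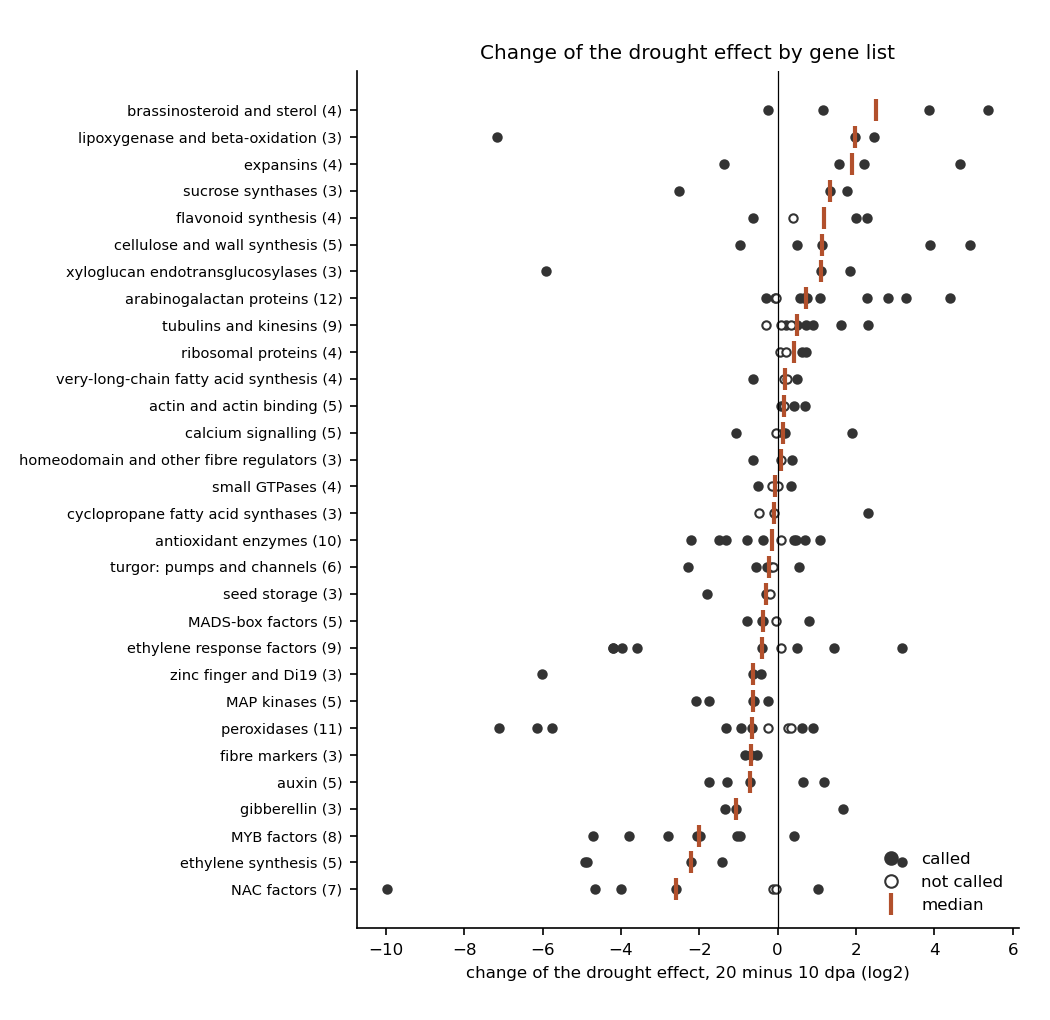
Each row is 1 of the 30 gene lists with at least 3 genes (number in parentheses), each point a gene at its change of the drought effect (20 minus 10 dpa, log2), filled where called, with a bar at the list median. Medians lie between −2.60 in NAC factors and 2.51 in sterol and brassinosteroid synthesis, and hybridisation scaling adds 0.75 to every change, which turns the lists with medians between −0.75 and 0 to positive. Of all named genes 79.3% were called.

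Several lipid genes had a higher effect at 20 dpa. Both fatty acid desaturases were higher, led by 3FAD/FAD78 (LOC107899542), an ω-3 desaturase that makes linolenic acid, which read 0.88, 0.84 and 1.00 in drought arrays at 20 dpa, against −0.98, −0.84 and −1.08 in control arrays. At 10 dpa its drought arrays read −0.85, −0.93 and −0.56, against 0.56, 0.80 and 0.58 in control arrays. Drought was thus the higher group at 20 dpa and the lower one at 10 dpa, for a change of 3.30 ± 0.13 (SE, log2). Of 3 cyclopropane fatty acid synthases, which make the ring-bearing acids of cotton seed oil, 1 was higher, CPA-FAS-2 by 2.30, and CPA-FAS-1 at −0.48 was not called. Without drought replicate 2 at 10 dpa CPA-FAS-1 was called lower, at −0.70 (limma adjusted p 0.0158). With array weights it was also called lower, at −0.66 (limma adjusted p 0.0378), whereas it was 0.27 with hybridisation scaling and 0.12 with the 5′ minus 3′ covariate, neither called. Of 4 genes for very long chain fatty acids, whose enzymes lengthen acyl chains, FDH was higher by 0.50, a call lost with the 5′ minus 3′ covariate (0.33, limma adjusted p 0.110). KCS12 was lower as deposited, at −0.62, against 0.13 with hybridisation scaling, and was not called with poly-A scaling (−0.48) or the covariate (−0.13). In flavonoid synthesis 2 of 4 genes were higher and 1 lower: the chalcone synthases CHS6 and CHS3, the entry enzymes of the pathway, by 2.27 and 2.00, and DFR, the dihydroflavonol reductase further along, at −0.64, which was 0.11 with hybridisation scaling.

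Hormone, calcium and turgor genes gave no common direction. Of 3 gibberellin genes the receptor GID1-2 changed by −1.34 and the DELLA repressor GAI2 by 1.67, and 2 of the 3 were lower, of which none was called lower with hybridisation scaling. Of 5 auxin genes 3 were lower and 2 higher, from Aux6 at −1.76 to ARF1 at 1.17, with a median of −0.72 that was 0.03 with hybridisation scaling. Of 5 calcium signalling genes 3 were higher and 1 lower, with the calcineurin B-like sensors CBL1 at 1.89 and CBL2 at −1.05. Of 6 turgor genes 4 were lower and 1 higher with a median of −0.22, against 1 lower and 3 higher with hybridisation scaling, and NHX1, a vacuolar sodium and potassium exchanger, changed by −2.28. The highest of these 6 was the aquaporin NIP6.1, at 0.55, a call lost with the 12 arrays alone.

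Markers of fibre gave no common direction. The 3 genes of the fibre marker list, E6 at −0.69, FSLTP2 at −0.83 and Fb2 at −0.52, were lower, with a median of −0.69. With hybridisation scaling none of the 3 was called and the median was 0.06. Other genes counted as fibre markers went both ways. CesA1 (3.90) and 3 of the 4 expansins were higher, and 1 expansin and Rac13 (−0.51) were lower. Of 3 seed storage proteins, markers of the embryo, 2 were lower with a median of −0.30, against 1 lower and 1 higher with a median of 0.46 with hybridisation scaling. The median gene, LEGB, was read by a probe set of antisense design at −0.30. Its other probe set was called higher, at 0.82, so its direction depends on the probe set read. The largest fall was that of LegA, a legumin, at −1.80 ± 0.15 (SE, log2), from −1.81 at 20 dpa and −0.01 at 10 dpa, and the highest was the vicilin gene vicB_At at −0.20, not called. The 1 pollen marker, G9, changed by −0.26, and the 1 photosynthesis gene, RCA1, which codes for rubisco activase, by −0.55. No xylem marker of the list was matched to a probe set. The part of a shift in tissue make-up in the results was not tested.

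Lists of general cell activity had small medians. Of 4 ribosomal protein genes 2 were higher and none lower, with a median of 0.42, between 0.05 for RL44, not called, and 0.72 for RL37a. Of 4 small GTPases 1 was higher and 1 lower (median −0.07), the lower one being Rac13, a GTPase known from fibres at the onset of the secondary wall, at −0.51, which turned to 0.24 with hybridisation scaling, and the higher one Rac9 at 0.35. The Rac9 call was lost in 8 of the 12 fits that left out 1 array (limma adjusted p 0.0507 to 0.153), among them those without drought replicate 2 at 10 dpa and drought replicate 3 at 20 dpa, with the 12 arrays alone, with poly-A scaling and with the 5′ minus 3′ covariate. Of 5 MADS-box factors 3 were lower and 1 higher (median −0.38), against none lower and 2 higher with hybridisation scaling, with MADS-1 at −0.78 and MADS-9 at 0.80. Of 3 fibre regulators of other families, HOX3, a homeodomain factor that promotes elongation of cotton fibres, was higher by 0.37 (a call lost without drought replicate 3 at 10 dpa, control replicate 1 at 20 dpa or drought replicate 3 at 20 dpa, limma adjusted p 0.0512 to 0.0564, and with poly-A scaling or the covariate) and GHTTG1, a WD-repeat protein, was lower at −0.64, against 0.11 with hybridisation scaling. Of the 30 lists with at least 3 genes, 4 had all of their called members higher as deposited, with at least 1 call. Another 4 had all of them lower as deposited: MAP kinases, fibre markers, seed storage, and zinc finger and Di19. With hybridisation scaling the median of each of these 4 lists was positive. Cinnamoyl-CoA reductase CCR1 (2.37), the polygalacturonase inhibitor-like PGIPL (2.07) and the homeodomain gene HB4 (−2.96) lay outside the rule for naming genes, as did the list members given above that were neither extremes of their list nor among the 30, and were picked with their values in view.

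ASP3, BC1, GLU and GEPH, for which the name gives no role that could be stated here, completed the 30 genes. ASP3 (LOC107901245) had effects of 2.66 at 20 dpa and −1.27 at 10 dpa, a change of 3.92 ± 0.24 (SE, log2). BC1 (LOC107910621) had 2.47 and −0.63 at those stages, and GLU (LOC107932771) 0.80 and −1.86. All 3 were higher in drought at 20 dpa and lower at 10 dpa as deposited, and with poly-A scaling GLU was at −0.13 at 20 dpa, not called. GEPH (LOC107918357), read by a probe set of antisense design, had the opposite pattern, with −1.95 at 20 dpa and 5.09 at 10 dpa and a change of −7.04 ± 0.13 (SE, log2).

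Effects at 0 and 5 dpa came from bolls and those at 10 and 20 dpa from ovules with fibres. A course over the 4 stages therefore also holds a change of the tissue sampled between 5 and 10 dpa. NAC5/NAC8 had effects of −0.13 at 0 dpa, 4.73 at 5 dpa, 7.71 at 10 dpa and −2.26 at 20 dpa. Lea5-D had 0.37, 2.57, 4.64 and 0.13 at those stages. ZFP1 had −2.34, 4.44, 6.97 and 0.94, so it was lower in drought at 0 dpa and higher at the other stages. These genes were thus furthest from control at 10 dpa and closer to it, or on its other side, at 20 dpa.

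The mirror course was seen in SMT2-2, FLA13 and EXPA11A. SMT2-2 had effects of 0.37 at 0 dpa, −1.11 at 5 dpa, −3.40 at 10 dpa and 1.98 at 20 dpa. FLA13 had −0.03, −1.72, −4.38 and 0.02 at those stages, and EXPA11A had 0.27, −0.95, −4.00 and 0.65. All 3 genes were closest to control at 0 or 20 dpa and furthest below it at 10 dpa. ACS3/ACS6 followed neither course: it had 1.23 at 0 dpa, 3.01 at 5 dpa, 0.61 at 10 dpa and 3.79 at 20 dpa. WRKY24/WRKY71 likewise had 1.31, 2.13, 0.99 and 4.02, above control at every stage as deposited with the smallest gap at 10 dpa. With poly-A scaling both genes lay below 0 at 10 dpa, ACS3/ACS6 at −0.46 and WRKY24/WRKY71 at −0.07. In all probe sets the change was called for 12768 (53.3%) between 0 and 5 dpa, 11160 (46.6%) between 5 and 10 dpa and 14366 (59.9%) between 10 and 20 dpa. At 2-fold these counts were 3331 (13.9%), 2952 (12.3%) and 5842 (24.4%). The last interval is the longest, and the tissue sampled changed between 5 and 10 dpa, so these counts are not like for like. The interval before shares its 10 dpa arrays with the interval described here, so their changes are linked by construction and were not compared gene by gene.

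**Figure D5:**
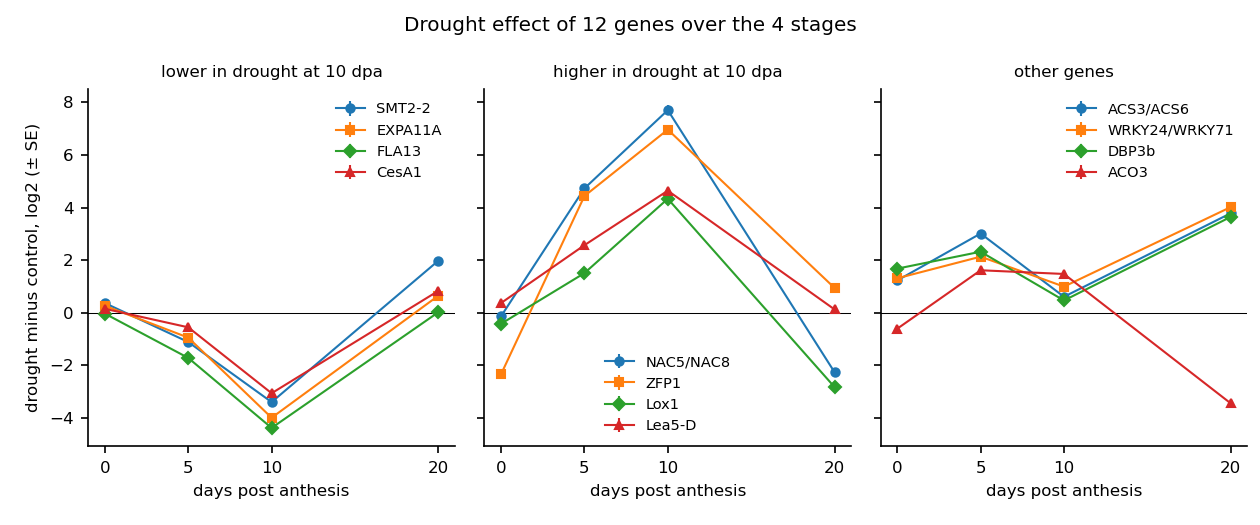
Drought minus control (log2, mean ± SE, 3 arrays per group) is drawn at 0, 5, 10 and 20 dpa for 12 genes in 3 panels. RNA came from bolls at 0 and 5 dpa and from ovules with fibres at 10 and 20 dpa. NAC5/NAC8, ZFP1, Lox1 and Lea5-D are highest at 10 dpa, SMT2-2, EXPA11A, FLA13 and CesA1 are lowest at 10 dpa, and WRKY24/WRKY71 and ACS3/ACS6 are above control at all 4 stages as deposited but below it at 10 dpa with poly-A scaling.

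Most probe sets had no gene assigned. The annotation gave 1 gene to 697 of the 23973 probe sets, and none to 23230. The largest changes of all were in such probe sets: GhiAffx.8053.1.A1_at at −12.24, from −6.36 at 20 dpa and 5.88 at 10 dpa, and Ghi.8476.1.S1_x_at at −11.98, from −1.99 at 20 dpa and 9.99 at 10 dpa. On the positive side stood Ghi.1127.1.S1_at at 9.74, from 5.67 at 20 dpa and −4.07 at 10 dpa, and Gra.623.2.S1_s_at at 9.54, from 5.33 at 20 dpa and −4.21 at 10 dpa. Probe sets named for *G. hirsutum* were called in 68.2% of 16800 cases and those named for the wild species *G. raimondii* in 40.0% of 7068. Among named genes the share called was 80.0% of 110 on A chromosomes and 78.7% of 136 on D chromosomes of the assembly Gossypium_hirsutum_v2.1, whose identifiers are used here. The probes can bind both copies of a gene, so a value may not belong to the copy named.

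The choice of probe set mattered in some genes. Of 122 genes with at least 2 probe sets, 83 had at least 2 called, and in 16 of these 83 the called probe sets went in opposite directions. The widest were LOC107899648, with no name, at −3.82 and 0.80, EXPA3D at −3.03 and 1.56, and MPK3. FLA13 with changes of 3.26 and 4.40, CesA1 with 2.25 and 3.90 and GRPL1/rgp1 kept 1 direction over their probe sets. After the mean of the controls of each stage was taken off, the 3 drought arrays at 20 dpa did not overlap the 3 at 10 dpa in 16923 probe sets (70.6%), which holds for all 30 genes by the rule that chose them.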

How the data were processed

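The members and gene lists were chosen with earlier results of these data known. RNA was hybridised to Affymetrix cotton arrays, and the authors deposited log2 values of 24132 probe sets on 24 arrays, made by RMA per the submitters' processing notes (version not given in the sources used here). In these deposited log2 values the median of each probe set over the 6 arrays of a stage was 0 to within 5e-07. This centring by stage is not stated by the authors, and no level, floor or filter on dim probe sets could be used. It leaves the difference of drought effects between stages intact.

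limma 3.58.1 in R 4.3.3 fitted the 8 group means to all 24 arrays (lmFit and eBayes, 16 residual degrees of freedom) after 159 control probe sets had been left out. Tests were two-sided, with Benjamini-Hochberg adjustment over 23973 probe sets, and a call needed an adjusted p under 0.05. Arrays give no counts, so their number limits the precision. In data simulated for this comparison over 23973 probe sets, 21 of 50 probe sets changed by a log2 of 0.5, 46 of 50 changed by 1 and 50 of 50 changed by 2 were called, with 4 false calls. The simulated arrays had independent noise, few changed probe sets and no shift of whole arrays. These counts check the fit and do not give the false calls in the data, where 59.9% of probe sets were called.

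The annotation gave 1 gene to 697 probe sets, several to 46 and none to 23230. Each gene was read by 1 probe set, picked blind to its values: by sense design first, then by a suffix with little risk of cross-hybridisation, then by ID order. Genes were named by this rule: among called genes with a name whose drought arrays did not overlap between stages, the 15 largest changes in each direction, then the highest and lowest member of each list with at least 3 genes, up to 3 genes with probe sets in opposite directions, and 2 unannotated probe sets in each direction. This gave 76 genes, 44 of them read by probe sets that may bind related transcripts and 10 by probe sets of antisense design. Of 41 lists 38 had a member; those for abscisic acid, heat shock proteins and xylem had none. The lists with a single gene included gossypol synthesis, where cdn1 changed by 1.04. The alternatives were leaving out each array, 3 scalings, the 5′ minus 3′ difference as a covariate, robust and weighted fits, a test against 2-fold, the replicate number as a block, the 12 arrays alone and probe sets without cross-hybridisation suffixes. Gene sequences were not used here.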

Additional observations from a re-analysis of the deposited data

Results flagged for a closer look

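Opposite drought effects at the 2 stages, with the difference itself called by limma, were the reason to look again at these results. Over all probe sets 4250 had such a pair of calls. Among the 30 genes of largest change, those that were lower in drought at 20 dpa and higher at 10 dpa were NAC5/NAC8 with a log2 change of −9.97, Lox1 with −7.16, pod10 with −7.11, GEPH with −7.04, pod7 with −6.14, XTH3 with −5.91, POX5 with −5.77, ACO3 with −4.92, ACO1 (LOC107905899) with −4.87 and ERF8 with −4.19. Those that were higher in drought at 20 dpa and lower at 10 dpa were GLU with a log2 change of 2.65, FLA15 with 2.82, BC1 with 3.10, FLA11 with 3.28, 3FAD/FAD78 with 3.30, SMT2-1 with 3.86, CesA1 with 3.90, ASP3 with 3.92, EXPA11A with 4.64, GRPL1/rgp1 with 4.92 and SMT2-2 with 5.38. The opposite calls of these 21 genes held in 16 with poly-A scaling, in 19 with hybridisation scaling, in 15 with the 5′ minus 3′ covariate and in 21 without any single array.

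A signal was also found outside the main measurement, in control probe sets, where drought and control arrays differed by amounts that changed between stages. The difference drought minus control changed by −0.14 for poly-A spikes (0.92 at 20 dpa and 1.07 at 10 dpa), by −0.75 for hybridisation controls (−0.37 at 20 dpa and 0.38 at 10 dpa) and by 0.80 for the 5′ minus 3′ signal (1.17 at 20 dpa and 0.36 at 10 dpa), on the log2 scale. Their part in the called changes was not tested.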

How the results depend on the processing

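Over the arrays left out in turn, the count of called changes lay between 13811 and 14456 and the 2-fold count between 5752 and 5994. Scaling on poly-A controls called 10968 changes, 22256 effects at 20 dpa, 22440 at 10 dpa and 22653 changes between 5 and 10 dpa. Scaling on hybridisation controls called 17929 changes, 9402 at 2-fold (8088 higher, 1314 lower), and 7414 changes between 0 and 5 dpa. With the 5′ minus 3′ covariate 10876 changes and 4359 effects at 20 dpa were called. The cause of these shifts was not tested. A test against 2-fold called 3989 changes, 2050 of them higher, 1811 effects at 20 dpa, 3403 at 10 dpa, and 1665 and 1715 changes between 0 and 5 and between 5 and 10 dpa. Without probe sets of cross-hybridisation suffix, where fewer were tested, 7211 changes were called, 2974 at 2-fold (1438 higher, 1536 lower), 7270 effects at 20 dpa, 7098 at 10 dpa, and 6190 and 5471 changes between 0 and 5 and between 5 and 10 dpa.

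Signs turned with hybridisation scaling for Di19-2 (0.33), Fb2 (0.23), MPK3/MPK6 (0.50), Rac13 (0.24), KCH1 (0.45), vicB_At (0.55), KCS12 (0.13), CPA-FAS-1 (0.27), GHTTG1 (0.11), FLA4 (0.44), DET2 (0.51) and DFR (0.11), as the upward shift of all changes implies. They turned with the covariate for SusA1 (−0.79), CPA-FAS-1 (0.12) and DET2 (0.0496), where the cause was not tested. RL44, at 0.05 and not called, turned without drought replicate 2 at 10 dpa (−0.0628), without control replicate 2 at 20 dpa (−0.0033) and with array weights (−0.0355). It also turned without both drought replicate 2 at 10 dpa and control replicate 1 at 20 dpa (−0.0197). That setting was chosen after seeing the data and called 14527 changes. Control replicate 3 at 20 dpa, which was kept in it, scattered slightly more (0.149) than control replicate 1 (0.147).

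Calls of other named genes were lost with poly-A scaling for MPK3/MPK6, Di19-2, Fb2, Rac13 and FLA4, with hybridisation scaling for CBL2, CTL1, GID1-2, FSLTP2 and MADS-1, and with the covariate for MPK3/MPK6, Rac13 and nst3. Leaving out 1 array ended the call of 3 of the 71 called genes, DET2, Rac9 and HOX3.

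The replicate numbers gave no sign of pairing in the values. Same-numbered drought and control arrays at 10 and 20 dpa correlated at −0.10 to 0.11, and differently numbered ones at −0.12 to 0.09. These correlations cannot show that the samples were unpaired, and the labels do not say which plots they came from. With the replicate block 14095 changes, 14060 effects at 20 dpa and 14221 at 10 dpa were called, and of the 76 named genes DET2 alone lost its call. The counts of opposite calls and of list members by setting, and the effects of single genes by setting, were also chosen after seeing the data.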
